A study of Mus musculus with 6 samples.

Results

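The genes described here make hemoglobin or mark red cell development: the adult alpha globins Hba-a1 and Hba-a2, the adult beta globins Hbb-bs and Hbb-bt, the heme enzyme Alas2, the membrane transporter Slc4a1, the erythropoietin receptor Epor and the carbonic anhydrase Car1. They were chosen by name, 9 in all, and 8 of them matched a row of the 36083 genes measured. The ninth, Ahsp, was not analysed here. Their levels were compared by RNA-seq between WT and Sdc1-/- Lin- bcCML cells, each represented by 3 libraries. To make this blast crisis leukemia, KLS stem and progenitor cells of WT or Sdc1-/- mice, both on a B6 background, received BCR-ABL and NUP98-HOXA9 by retrovirus. The labels name NSG mice as recipients, whereas the general methods of the study name CD45.1 mice. The mice of both cohorts were killed at one time, and the leukemic cells that lack lineage markers were sorted from the spleen. Both groups therefore carry the same oncogenes, expressed from viral vectors, and differ by label in the donor genotype. The labels give neither the age nor the sex of the donors.

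Hemoglobin is a tetramer of alpha-like and beta-like globin chains, each holding a heme. Its genes are expressed at the highest levels in late erythroblasts and reticulocytes, and are switched on by a set of factors that includes GATA1 and KLF1. The spleen of the mouse is a site of red cell formation under stress, and TER119, an antigen of late erythroid cells, belongs to the lineage markers against which these cells were sorted. The sorting protocol of the study also lysed red blood cells before staining.

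The sequences of the globin pairs are shown because they set how far single globin genes can be told apart. In the coding sequence of GENCODE M21, Hba-a1 and Hba-a2 are 99.77% identical and differ at 1 of 429 bases, C381T, counted from 1 at the first base of the start codon. The stretches from base 366 to base 395 are shown with the differing base in capitals.
Hba-a1: gcatgcctctctggaCaaattccttgcctc
Hba-a2: gcatgcctctctggaTaaattccttgcctc
Hbb-bs and Hbb-bt likewise differ at 1 of 444 coding bases, C417T, shown here within bases 402 to 431.
Hbb-bs: ggtggctggagtggcCgctgccctggctca
Hbb-bt: ggtggctggagtggcTgctgccctggctca
Of the 31-base words in the Hba-a2 transcripts, 92.6% occur in transcripts of other genes, and the share was 75.5% for Hba-a1, 59.4% for Hbb-bt and 54.4% for Hbb-bs. For Car1 it was 20.1%, all of it shared with the pseudogene Gm5843, whose highest value in any library was 0.567. Alas2, Slc4a1 and Epor share no such word with another gene. How the authors' program divided reads within a globin pair is therefore uncertain, and the sum of a pair is the firmer value.

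The promoters of 6 of these genes have an entry in the RefSeq promoter table of GRCm38.p6. All 6 hold the letters GATAA, on either strand, within the 250 bases before the start of transcription, a match found in 22.6% of 32851 mouse promoters. GATAA lies within the motif bound by GATA factors, and the windows below show it in capitals, read on the strand that carries it.
Hba-a1: gtccgggcaactGATAAggattccctgcac
Hba-a2: gtccgggcaactGATAAggattccctgcac
Hbb-bs: gttctctgcacaGATAAggacaaacattat
Hbb-bt: attagctgcaagGATAAgaacagacactac
Alas2: gcctctgctaaaGATAAaaagcaaagtagt
Epor: aggctggggacaGATAAgctacagccacca
Distances are counted from the RefSeq start of the promoter table, which differs from the edge of the GENCODE M21 gene given with each gene further on, so they cannot be taken from those coordinates. The windows of the alpha genes are identical and lie at chr11:32283478-32283507 for Hba-a1, 178 bases before its start, and chr11:32296295-32296324 for Hba-a2, 181 bases before its start. Those of the beta genes, which are read from the minus strand, lie at chr7:103828120-103828149 for Hbb-bs and chr7:103814110-103814139 for Hbb-bt, 205 and 200 bases before the start. For Alas2 (chrX:150547318-150547347, 82 bases before the start) and Epor (chr9:21963614-21963643, 50 bases before the start) the letters are on the strand opposite to the gene. The letters CACCC, part of the motif bound by KLF1, were found on either strand in the same 6 promoters and in 52.0% of all promoters. Both CCAAT, searched likewise and present in 33.8% of promoters, and the TATA-box letters ATATAA, present in 9.1%, were found in the 4 globin promoters and in neither Alas2 nor Epor. A match describes the letters only and is no evidence that a factor binds there. The TATA-box letters of the beta genes are set in different surroundings, as the windows 25 and 24 bases before the start of Hbb-bs and Hbb-bt show.
Hbb-bs: ccagggcagagcATATAAggtgaggtagga
Hbb-bt: ccagcattgggtATATAAagctgagcaggg

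The authors deposited 1 value per gene and library, TPM rescaled between libraries, with sums of 944973 to 1058263 per library. TPM counts transcripts per length, so levels can be compared between genes, but read depth is unknown and no interval for counting error can be given. The test was limma, run for 12155 genes whose mean across the 6 libraries reached 1, the 8 genes described among them, on log2(value + 1), a scale that understates the change of low genes. Sdc1, the targeted gene, was at 1.75, 1.21 and 1.51 in the WT libraries and at 3.85, 3.80 and 4.12 in the libraries labelled Sdc1-/-. Its mRNA was thus higher under the label of its loss (log2 fold change 0.99, adjusted p = 0.00012, limma), and the groups are named by their labels throughout. The study describes an allele whose signal peptide sequence is disrupted, and the level of the mRNA does not check the label. The labels do not state that each library is from a mouse of its own, and a legend of the study calls the WT libraries technical replicates, so all p-values measure the spread between these libraries only.

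The globin, heme and membrane genes were lower in the libraries labelled Sdc1-/-, and Epor was slightly higher. At an adjusted p under 0.05 (limma, Benjamini-Hochberg over 12155 genes), 7 of the 8 genes were lower, against 31.3% of all genes tested, and 1 was higher, against 29.3%. In all, 60.7% of the genes tested were called in one direction or the other, so a call alone says little about any of them. By size of change, 3 of the 8, Hba-a1, Hba-a2 and Alas2, were at least 2-fold lower on the scale tested, against 2.92% of all genes. This count depends on the scaling. With all libraries rescaled to sum to 1000000, Hba-a2 was at -1.28 on the log2 scale, but Hba-a1 at -0.91 and Alas2 at -0.87 fell short of 2-fold. The alpha genes also share most of their sequence, so their changes are not separate evidence. Over the 8 genes the log2 fold change had a median of -0.85, and over all genes tested of -0.0097. The libraries of the groups did not overlap for any of the 8 genes, which also holds for 66.7% of all genes tested, 34.2% with Sdc1-/- below WT and 32.6% with Sdc1-/- above. Taken singly, each of the 8 genes reached p = 0.1 in a two-sided exact permutation test, and 3 libraries a side allow no smaller p.

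**Figure D1:**
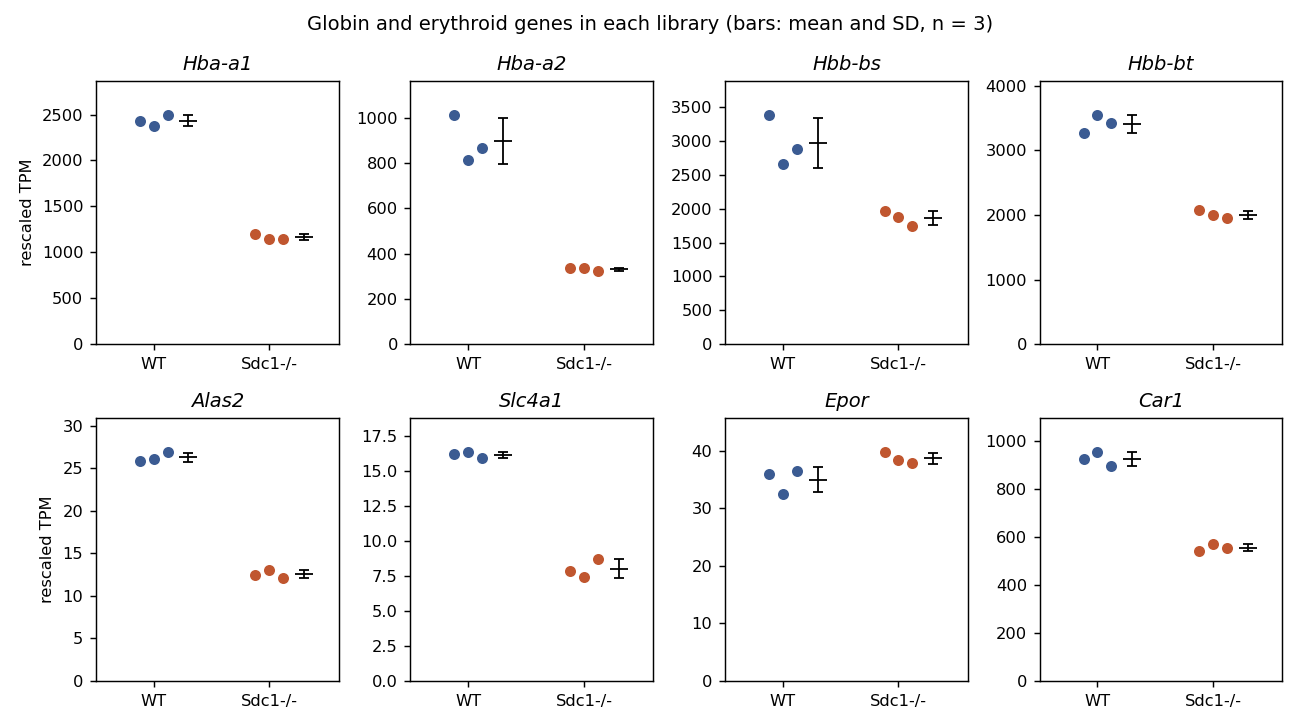
Values in rescaled TPM (y axis, from 0, a separate scale in each panel) of the 8 genes in the 3 WT and 3 Sdc1-/- libraries, with the mean and SD beside the points. The Sdc1-/- libraries lie below all WT libraries in 7 panels, and above them by a small margin for Epor.

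Markers of other cells are given here for their whole lists. The sums of the neutrophil, mast cell and basophil, red pulp macrophage, progenitor and endothelial lists were lower in Sdc1-/- libraries. Those of the megakaryocyte, B cell and T cell lists overlapped between groups. The summed level of 8 neutrophil markers, among them S100a8, S100a9 and Ngp, was 13620.5 to 14526 in WT and 5110.0 to 5233 in Sdc1-/- libraries, and all 8 were lower. The 6 mast cell and basophil markers summed to 561 to 580.4 and 309 to 317, with 5 lower. The 9 markers of red pulp macrophages, which take up old red cells in the spleen, summed to 55.2 to 58.4 and 27.1 to 30.1, with 6 of the 7 tested lower. Their part in the results was not tested. The lineage antibodies of the study include Gr1 and CD11b, which mark myeloid cells, yet the neutrophil sums were the highest of these marker lists. Markers of lymphoid cells, against which the sort is also directed, were near 0. The 5 T cell markers summed to at most 0.978 in any library. The 5 B cell markers summed to 2.58 to 3.34 over both groups, most of it Cd79b. Megakaryocyte markers, which share progenitors and GATA1 with red cells, summed to 511 to 538 in WT and 524 to 537 in Sdc1-/- libraries, with 3 higher and 5 lower. Of the 4 progenitor markers, Kit was higher and Cd34, Flt3 and Ptprc were lower. Endothelial markers summed to 15.1 to 16.2 and 13.5 to 13.9, nearly all of it Pecam1.

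The alpha globin gene Hba-a1 (ENSMUSG00000069919, chr11:32283511-32284465 of GRCm38, plus strand) stood at 2429, 2377 and 2491 in the WT libraries and at 1205, 1147 and 1148 in the Sdc1-/- libraries. The means were 2432 ± 57.0 (SD, n = 3) and 1167 ± 32.9 (SD, n = 3), a 2.08-fold difference, and the log2 fold change was -1.06 (SE 0.034, 95% interval -1.14 to -0.98, adjusted p = 1.6e-06, limma). Only 2.76% of all genes tested had a log2 fold change this low or lower. Hba-a2 (ENSMUSG00000069917, chr11:32296489-32297298, plus strand), which encodes the same alpha chain from the neighboring locus, stood at 1009.9, 813 and 864 in WT and at 335, 335 and 322 in Sdc1-/- libraries. It showed the largest difference of the 8 genes, 2.71-fold between means of 896 ± 102 and 330.4 ± 7.62 (SD, n = 3 each), with a log2 fold change of -1.43 (SE 0.076, 95% interval -1.61 to -1.25, adjusted p = 9.3e-06, limma). Within both alpha genes the 3 Sdc1-/- libraries were closely alike, and for Hba-a2 the spread was in the WT libraries, where replicate 1 was highest.

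The beta globin genes were the most abundant of the set. Hbb-bs (ENSMUSG00000052305, chr7:103826534-103828096, minus strand) stood at 3378, 2658 and 2884 in WT and at 1962, 1872 and 1752 in Sdc1-/- libraries. The means, 2973 ± 368 and 1862 ± 105 (SD, n = 3 each), differed 1.60-fold, and the log2 fold change of -0.67 had the widest error among the 8 genes (SE 0.089, 95% interval -0.88 to -0.46, adjusted p = 0.00061, limma). Here too WT replicate 1 was highest. Hbb-bt (ENSMUSG00000073940, chr7:103812524-103813996, minus strand) stood at 3269, 3542 and 3418 in WT and at 2071, 1999 and 1949.5 in Sdc1-/- libraries, a 1.70-fold difference (log2 fold change -0.76, SE 0.041, 95% interval -0.86 to -0.67, adjusted p = 9.9e-06, limma). In this gene WT replicate 1 was the lowest of its group, the opposite of Hbb-bs. Among all 36083 genes the mean of Hbb-bt ranked 70 in WT and 93 in Sdc1-/- libraries, and that of Hba-a2 ranked 167 and 390.

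Summed within a library, the adult alpha genes reached 3328 ± 127 in WT and 1497 ± 37.4 in Sdc1-/- libraries (SD, n = 3 each), a log2 difference of -1.15 between the means. The adult beta genes summed to 6383 ± 234 and 3868 ± 166 (SD, n = 3 each), a log2 difference of -0.72. The alpha sum thus differed more than the beta sum. The ratio of alpha to beta, which does not depend on the scaling between libraries, was 0.517, 0.514 and 0.532 in WT and 0.382, 0.383 and 0.397 in Sdc1-/- libraries. The Sdc1-/- libraries lay below all WT libraries in this ratio (p = 0.1 in a two-sided exact permutation test, its lower limit here). Since reads are shared within a pair, each gene was also set against the sum of the other pair, a choice made after seeing the data: the log2 difference in the ratio to the beta sum was -0.34 for Hba-a1 and -0.71 for Hba-a2, and in the ratio to the alpha sum 0.48 for Hbb-bs and 0.39 for Hbb-bt. The ratio of Hba-a1 to Hba-a2 was 2.41, 2.92 and 2.88 in WT and 3.60, 3.43 and 3.57 in Sdc1-/- libraries and did not overlap between groups, while the ratio of Hbb-bt to Hbb-bs, 0.968, 1.33 and 1.19 in WT and 1.06, 1.07 and 1.11 in Sdc1-/- libraries, did overlap.

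As a share of all signal in a library, the 10 globin genes listed further on held 0.954%, 0.894% and 0.921% in WT and 0.586%, 0.563% and 0.547% in Sdc1-/- libraries. The means were 0.923% ± 0.030 and 0.565% ± 0.019 (SD, n = 3 each; two-sided exact permutation test, p = 0.1). Globin transcripts were therefore present in both groups at close to 1% of the signal or less, although the cells were sorted as Lin-. In bulk RNA, fewer cells of an erythroid type and less globin RNA per cell cannot be told apart.

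**Figure D2:**
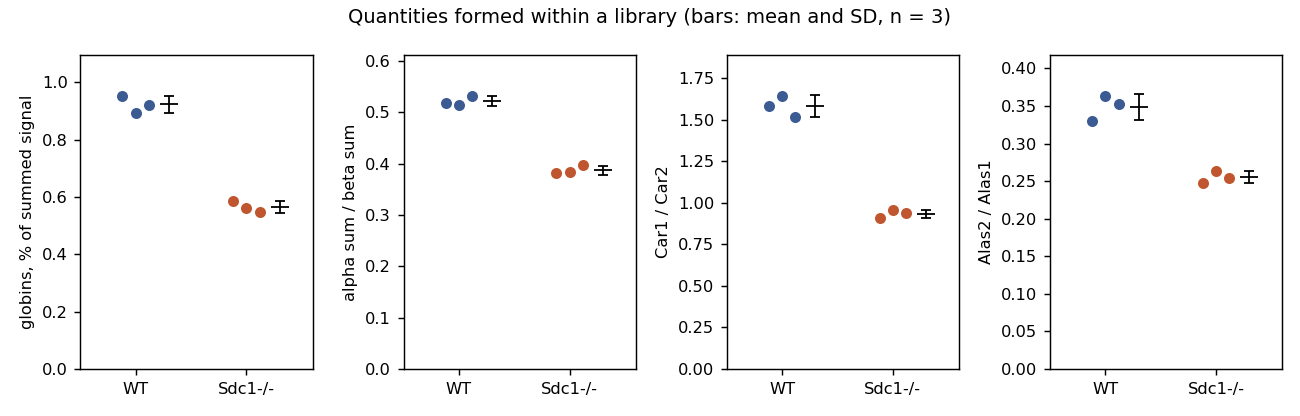
Quantities formed within each library, so that the scaling between libraries cancels: the share of the 10 listed globin genes in the summed signal (percent), and the ratios (no unit) of the adult alpha to the adult beta sum, of Car1 to Car2 and of Alas2 to Alas1, with mean and SD for 3 libraries per group. In every panel the 3 Sdc1-/- libraries lie below the 3 WT libraries.

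Alas2 (ENSMUSG00000025270, chrX:150547375-150570638, plus strand) encodes the erythroid form of the first enzyme of heme synthesis. It stood at 25.9, 26.1 and 26.9 in WT and at 12.5, 13.0 and 12.2 in Sdc1-/- libraries, a 2.10-fold difference between tight groups (log2 fold change -1.01, SE 0.041, 95% interval -1.11 to -0.91, adjusted p = 3.3e-06, limma). Alas1, the form used by other cells, was also lower, with means of 75.5 ± 3.49 and 49.2 (log2 fold change -0.61, adjusted p = 3.2e-05, limma). The ratio of Alas2 to Alas1 was 0.349 ± 0.017 in WT and 0.255 ± 0.0082 in Sdc1-/- libraries (SD, n = 3 each), so the erythroid form differed by more than the general one. Alas2 is X-linked. The summed level of 4 Y-linked genes was 0.276 to 0.308 in the WT libraries and 68.1 to 78.4 in the Sdc1-/- libraries, so donor genotype and the presence of Y-linked transcripts cannot be told apart for any gene described here.

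Slc4a1 (ENSMUSG00000006574, chr11:102348824-102366203, minus strand) encodes band 3, the anion exchanger that anchors the red cell skeleton to the membrane. Its levels of 16.2, 16.4 and 15.9 in WT and 7.89, 7.41 and 8.74 in Sdc1-/- libraries were the lowest of the set in each group. The means differed 2.02-fold, with a log2 fold change of -0.93 (SE 0.060, 95% interval -1.07 to -0.79, adjusted p = 2.1e-05, limma).

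Car1 (ENSMUSG00000027556, chr3:14766216-14808368, minus strand) encodes carbonic anhydrase 1, an abundant red cell enzyme. It stood at 927, 954 and 897 in WT and at 542.5, 571 and 555 in Sdc1-/- libraries, a 1.67-fold difference (log2 fold change -0.74, SE 0.035, 95% interval -0.82 to -0.65, adjusted p = 6.4e-06, limma). Car2, a carbonic anhydrase also found in other cells, was not called, at 585, 580 and 592 in WT and at 597, 596 and 591 in Sdc1-/- libraries (log2 fold change 0.022, 95% interval -0.038 to 0.083, adjusted p = 0.47, limma). This interval excludes a change the size of that of Car1. With all libraries rescaled to sum to 1000000, or after quantile normalization, Car2 was called higher, with a log2 fold change of up to 0.17. The ratio of Car1 to Car2, free of the scaling, was 1.58 ± 0.065 and 0.935 ± 0.024 (SD, n = 3 each).

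Epor (ENSMUSG00000006235, chr9:21958897-21963506, minus strand) encodes the receptor through which erythropoietin keeps erythroid progenitors alive, and it is already expressed before globin is. It stood at 36.0, 32.5 and 36.4 in WT and at 39.8, 38.4 and 37.9 in Sdc1-/- libraries. The means, 35.0 ± 2.12 and 38.7 ± 0.957 (SD, n = 3 each), differed 1.11-fold in the direction opposite to the other 7 genes (log2 fold change 0.14, SE 0.050, 95% interval 0.024 to 0.26, adjusted p = 0.042, limma). This call is weak. It was lost in 7 of 15 alternative fits, among them those without WT replicate 1, WT replicate 2 or any single Sdc1-/- replicate, with adjusted p-values of 0.0018 to 0.11 over all 15.

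By level, the order in WT was Hbb-bt, Hbb-bs, Hba-a1, Car1, Hba-a2, Epor, Alas2 and Slc4a1, and it was the same in Sdc1-/- libraries. The neighbors Hbb-bt and Hbb-bs overlapped in both groups, and Car1 and Hba-a2 overlapped in WT only. All other neighbors were apart in both groups.

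**Figure D3:**
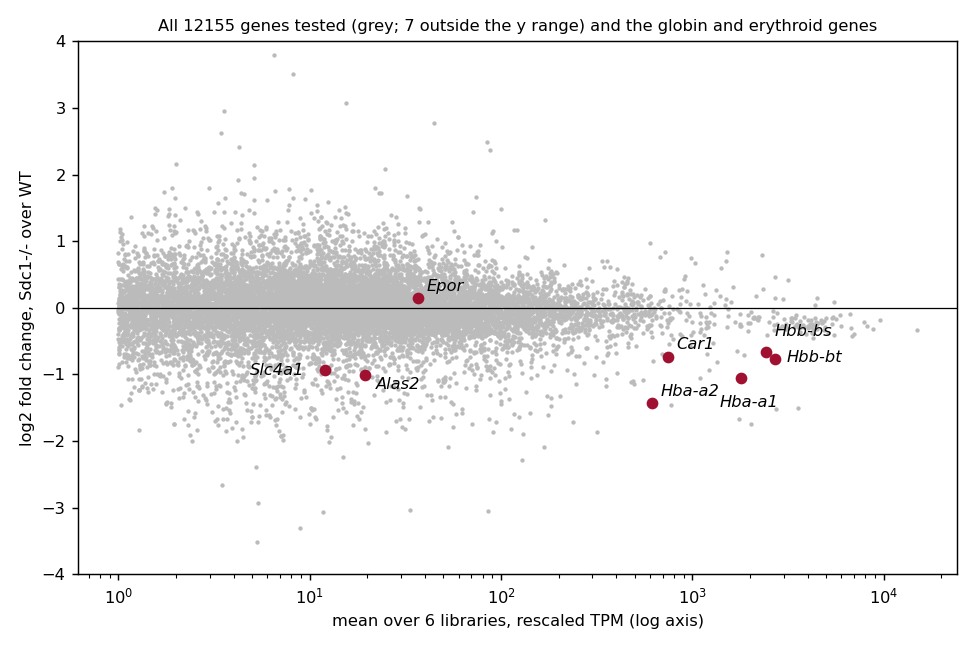
Mean level over the 6 libraries (x axis, rescaled TPM, log axis) and log2 fold change of Sdc1-/- over WT (y axis) of the 12155 genes tested (grey, 7 outside the y range) and of the 8 globin and erythroid genes (red, named). The 4 globin genes and Car1 lie at the abundant end below the line at 0, Slc4a1 and Alas2 lie below it at low levels, and Epor lies just above it at 0.14.

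The rest of the erythroid program was read from 8 lists, which include the genes above. They hold 97 genes in all, some also used by other cells. Of these genes, 89 were tested, of which 48 were lower, 22 higher and 19 not called (limma, adjusted p under 0.05), with a median log2 fold change of -0.18. Leaving out the genes already described, 41 of 81 were lower and 21 higher, with a median of -0.15, and only 1 of the 81, Cldn13, was at least 2-fold lower. Of all genes tested, 31.3% were lower and 29.3% higher, and 2.92% were at least 2-fold lower. With all libraries rescaled to sum to 1000000, which moves the median of all genes from -0.0097 to 0.12, the 89 genes gave 38 lower and 31 higher. The same 7 of the 8 genes stayed lower. Under that scaling 2380 of all 12155 genes were lower and 5286 higher. The counts given below with this sum are to be read against these.

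Of the 10 globin genes listed, 5 were tested and all 5 were lower, with a median of -0.81. The additional one is Hbq1b, a theta globin gene, with means of 4.83 ± 0.290 and 2.37 (log2 fold change -0.81, adjusted p = 0.0016, limma). The other 5 had means under 1. Hbb-y, an embryonic beta-like gene, was at 0.643, 0.314 and 0.482 in WT libraries and listed at 0 in all Sdc1-/- libraries. The embryonic alpha-like gene Hba-x was at 0.058, 0.076 and 0.189 in WT and likewise listed at 0 in Sdc1-/- libraries, Hbb-bh1 and Hbq1a overlapped between groups with values under 0.32, and Hbb-bh2 was at 0 in all libraries. The adult genes held nearly all of the globin signal in both groups.

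Of the 14 genes of heme synthesis and transport, 8 were lower and 4 higher, with a median of -0.17. With a sum of 1000000 these became 5 lower and 4 higher with a median of -0.026, and quantile normalization gave the same counts with a median of -0.097. Beside Alas2 and Alas1, the largest change was that of Fech, the ferrochelatase that places iron in the ring, with means of 57.1 ± 1.32 and 35.4 (log2 fold change -0.68, SE 0.032, adjusted p = 6.4e-06, limma). Both ends of the pathway were thus lower, whereas 4 enzymes of its middle part, Alad, Uros, Cpox and Ppox, were higher, by log2 fold changes of 0.19, 0.19, 0.19 and 0.47, although the call of Alad was lost without Sdc1-/- replicate 1 (adjusted p = 0.056, limma) and that of Uros in 5 of 15 alternatives. Urod, from the same middle part, was lower, though not past the threshold under the other scalings. Tmem14c, a porphyrin transporter of the mitochondrion and the most abundant gene of the list, differed by -0.18 on the log2 scale (adjusted p = 0.0011, limma), a call that was lost with a sum of 1000000 (adjusted p = 0.35).

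Of the 21 tested genes of the red cell membrane and skeleton, 13 were lower and 6 higher, with a median of -0.24, and with a sum of 1000000 the counts were 10 and 6 and the median -0.096. Rhag, the Rh-associated glycoprotein, stood at 120, 121 and 117 in WT and at 60.2, 61.7 and 60.2 in Sdc1-/- libraries (log2 fold change -0.96, SE 0.029, adjusted p = 1.2e-06, limma). Cldn13, a claudin of mouse erythroid cells, stood at 53.9, 54.2 and 57.5 against 25.1, 23.6 and 23.1 (log2 fold change -1.17, SE 0.045, adjusted p = 2.8e-06, limma). In the opposite direction, Kel, the Kell blood group protein, stood at 9.79, 10.4 and 11.9 in WT and at 25.7, 22.1 and 27.2 in Sdc1-/- libraries, the largest rise of the 8 lists (log2 fold change 1.15, SE 0.094, adjusted p = 5.9e-05, limma). Genes of one structure did not move as one, since Slc4a1 was lower while Ank1, the ankyrin that ties band 3 to spectrin, was higher (log2 fold change 0.41, adjusted p = 0.00041, limma).

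Of the 10 red cell enzymes and chaperones tested, 5 were lower and 1 higher, with a median of -0.16, and with a sum of 1000000 the counts were 4 and 4 and the median -0.050. Beside Car1, Alox15, a lipoxygenase that acts on organelle membranes in reticulocytes, had means of 7.76 ± 0.879 and 4.11 (log2 fold change -0.78, adjusted p = 0.00017, limma), and Bpgm, the enzyme that makes 2,3-bisphosphoglycerate, was lower by less (log2 fold change -0.30, adjusted p = 0.00063, limma). Of the 10 genes of iron uptake and storage, 3 were lower and 3 higher, and the median of -0.087 became 0.059 with a sum of 1000000. Fth1, the ferritin heavy chain, was the most abundant and stood at 1709, 1722 and 1692 in WT and at 974, 986 and 946 in Sdc1-/- libraries (log2 fold change -0.82, adjusted p = 2.2e-06, limma). The receptor Tfr2 and the ferrireductase Steap3 were higher (log2 fold changes 0.65 and 0.56, adjusted p = 3.5e-05 and 2.1e-05, limma). Tfrc, the transferrin receptor that supplies most iron to erythroblasts, overlapped between groups (99.3, 116 and 117 against 81.3, 96.1 and 108).

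Of the 9 tested genes of erythropoietin signaling, 6 were lower and 2 were higher, 1 of them Epor itself, with a median of -0.21. With a sum of 1000000, 4 were lower and 2 higher, and the median was -0.067. These are mRNA levels in cells that carry BCR-ABL, and whether signaling through the erythropoietin receptor differed was not tested. Cish, a target and inhibitor of the JAK2 and STAT5 pathway, had means of 84.2 ± 4.56 and 53.4 (log2 fold change -0.65, adjusted p = 2.4e-05, limma), and the survival gene Bcl2l1, another target, means of 30.3 ± 0.355 and 23.3 (log2 fold change -0.37, adjusted p = 0.00033, limma). The kinase Lyn was lower (log2 fold change -0.68, adjusted p = 4.6e-06, limma). Pim1, a kinase that STAT5 induces, was lower by 0.21 on the log2 scale (adjusted p = 0.0011, limma), and its call was lost with a sum of 1000000 (adjusted p = 0.13).

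Of the 12 erythroid transcription factors, 5 were higher (41.7%) and 3 lower (25.0%), with a median of 0.070. Among all genes tested, 29.3% were higher and 31.3% lower, with a median of -0.0097. For so short a list the counts lie near those shares. With a sum of 1000000 the counts of the factors were 9 and 2. That scaling also moved the counts of all 12155 genes, to 5286 higher and 2380 lower. Gata1 was not called, at 78.7, 76.5 and 80.1 in WT and 83.4, 82.3 and 82.1 in Sdc1-/- libraries (log2 fold change 0.074, adjusted p = 0.070, limma, and called higher under the 3 other scalings), and Klf1 was higher, at 52.8, 46.9 and 47.6 against 57.1, 55.5 and 57.8 (log2 fold change 0.21, adjusted p = 0.0095, limma). Both were chosen for their role at globin genes after their values were seen. The partners Ldb1 and Lmo2, which join GATA1 and TAL1 in one complex, were higher, with log2 fold changes of 0.70 and 0.53 (adjusted p = 6.8e-06 and 1.1e-05, limma). Sox6, which acts in adult erythroid maturation, was lower at a low level (means 2.71 ± 0.295 and 1.58, log2 fold change -0.52, adjusted p = 0.0013, limma), and Gata2, a factor of early progenitors and the most abundant of the list, was not called (log2 fold change 0.054, adjusted p = 0.44, limma). None of the factors that were higher was lower under any scaling tried, but this is no separate evidence. The 3 other scalings raised the median over the 12155 genes from -0.0097 to 0.12, 0.13 and 0.013. A change of sign was therefore unlikely in any case. Set against these factors, the sum of the 4 adult globins was 124 ± 3.89 times the level of Gata1 in WT and 64.9 ± 1.89 times in Sdc1-/- libraries, and 198 ± 6.16 and 94.4 ± 4.38 times that of Klf1 (SD, n = 3 each), ratios chosen after seeing the data and given as a description.

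Of the 8 genes of organelle and nuclear clearance, which act when the erythroblast loses its nucleus and mitochondria, 5 were lower and 1 higher, with a median of -0.30, which became 5 and 2 with a median of -0.16 with a sum of 1000000. Mkrn1, a ubiquitin ligase, stood out with means of 108 ± 2.28 and 58.5 (log2 fold change -0.88, SE 0.034, adjusted p = 2.9e-06, limma). Trim10 had means of 2.68 ± 0.075 and 1.38 (log2 fold change -0.63, adjusted p = 0.00016, limma), and Bnip3l, the mitophagy receptor of reticulocytes and the most abundant of the list, means of 185 ± 6.18 and 140.1 (log2 fold change -0.40, adjusted p = 0.00024, limma).

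**Figure D4:**
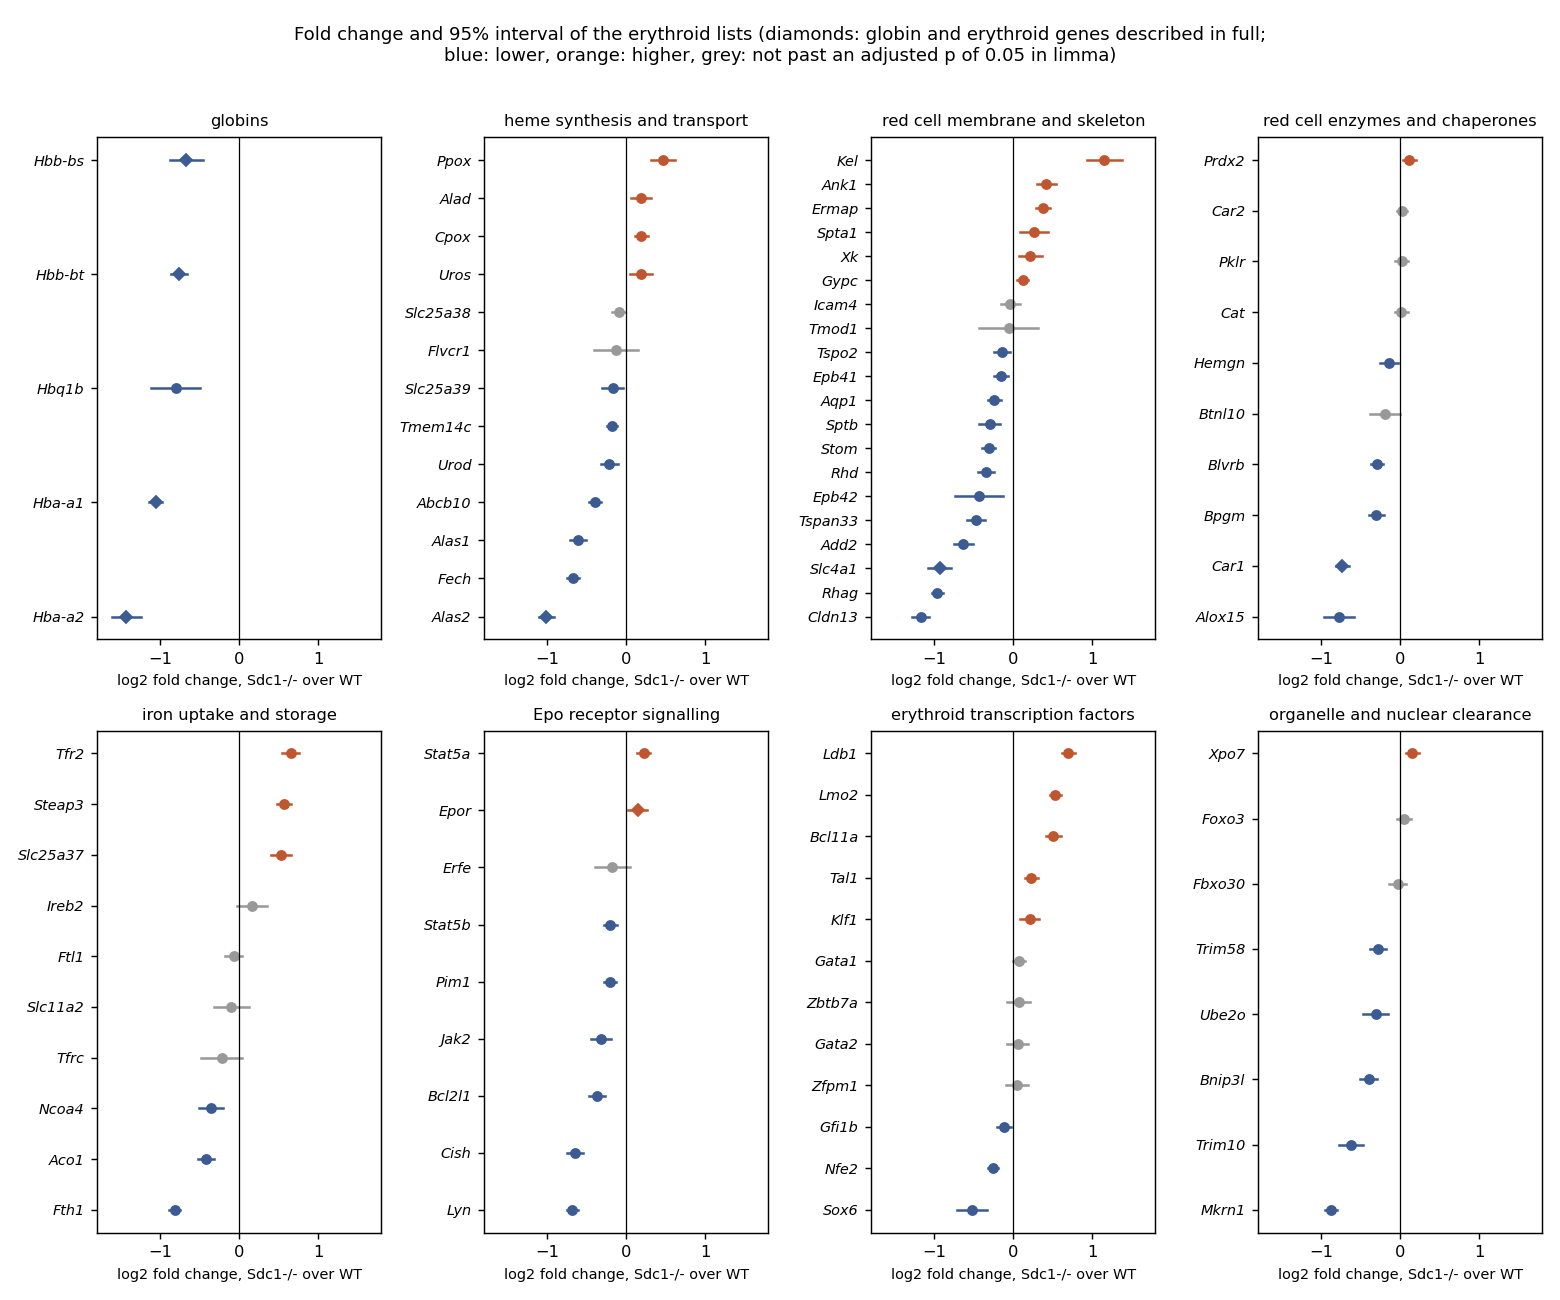
Log2 fold change of Sdc1-/- over WT (x axis, on the log2(value + 1) scale) with its 95% interval from limma for 87 of the 89 tested genes of the 8 erythroid lists, 1 panel per list. The globin panel lies wholly below 0, the heme and membrane panels run from Alas2 at -1.01 and Cldn13 at -1.17 to Ppox at 0.47 and Kel at 1.15, and the transcription factors lie on both sides of 0.

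The genes most like each of the 8 were sought among all others tested, by the root mean square difference over the 6 libraries between log2 values, each gene centred on its own mean, which describes likeness and nothing more. For Hba-a1 they were Fgr, Ctse and Pdcd1, with differences of 0.027, 0.029 and 0.030, and for Hba-a2 Ltb4r1, Cd68 and Sapcd1, with 0.039, 0.060 and 0.062. For Hbb-bs they were Zfp787, C130050O18Rik and Sh3bp5 (0.033, 0.050 and 0.051) and for Hbb-bt Pik3cg, Coa7 and 1700020L24Rik (0.028, 0.031 and 0.033). Alas2 was matched by Serpina3f and Tnfrsf26 (0.024 and 0.031), and Car1 by Ms4a3, Gsta4 and Tcta (0.018, 0.021 and 0.028). Slc4a1 was matched by Trem1 and a row of identical values listed as ENSMUSG00000115982 (0.034 each) and by Klf6 (0.044), and Epor by Pck2, Kif18b and Ncln (0.013, 0.013 and 0.015). None of these nearest genes belongs to the erythroid lists. With the 8 genes left out, those lists hold only 81 of the 12155 genes tested, so this was likely in any case. Among the 8 genes the closest pairs were Hba-a1 and Alas2, at 0.047, and Hbb-bt and Car1, at 0.054.

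**Figure D5:**
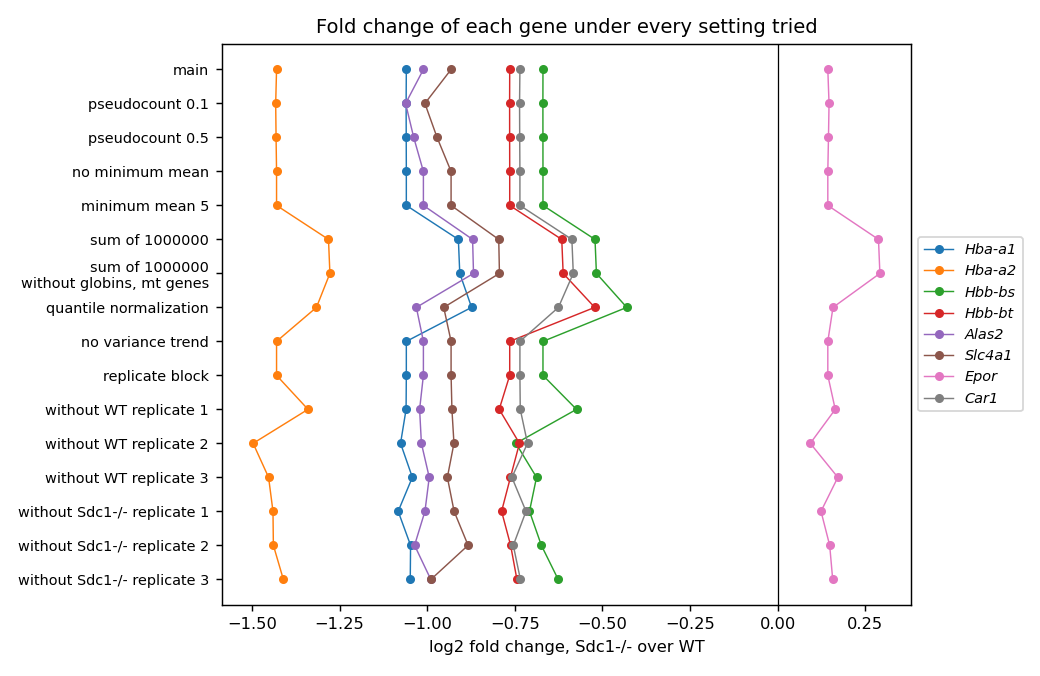
Log2 fold change of Sdc1-/- over WT (x axis) of each of the 8 genes (colors) in the fit reported and in 15 alternatives (y axis). Lines join the values of 1 gene; 7 genes stay below 0 in every fit, with Hba-a2 between -1.50 and -1.28, and Epor stays above 0, between 0.093 and 0.29.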

How the data were processed

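Total RNA of 3 WT and 3 Sdc1-/- Lin- bcCML samples (150 ng each) was made into stranded mRNA libraries and read as single 75-base reads. The authors deposited a signal per gene and library, TPM from kallisto rescaled between libraries, so that sums differ. The submitters' processing notes name kallisto, sleuth 0.30.0 and mm10; the kallisto version and the transcriptome are not given in the sources used here. The second deposited table holds the authors' own sleuth comparison (p-value, q-value, effect size, its error, mean and variances) and was not used. Symbols came from the gene name table, in which 35454 of 36083 identifiers matched; gene coordinates came from GENCODE M21.

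limma 3.58.1 in R 4.3.3 was fitted to log2(value + 1) of the 12155 genes whose mean reached 1, on the group alone, using a variance trend and Benjamini-Hochberg adjustment (two-sided, 0.05), after tests on simulated data. The design had assumed unscaled TPM, and the test was kept. The globin share, the adult alpha to beta ratio and single genes were compared by exact permutation tests. The other ratios are given as a description. Genes and lists were chosen with earlier results of these data known. Named were all 8 genes, of each erythroid list the 3 called genes with the largest change and the most abundant one, and the 3 genes most like each of the 8. A few genes that this rule or the lists hold are not reported here. Other genes named were chosen after their values were seen. In 15 alternatives the pseudocount (0.1, 0.5), minimum mean (none, 5), scaling, variance trend, replicate block or libraries changed. Python 3.11.15, numpy 2.4.6, pandas 2.3.3, scipy 1.17.1 and matplotlib 3.10.9 were used.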

Additional observations from a re-analysis of the deposited data

How the results depend on the processing

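The 7 lower genes stayed lower, past the threshold, in all 15 alternatives. The number of the 8 genes called higher, 1 (Epor), was 0 with no minimum mean and with no variance trend, and 0 to 1 with each library left out in turn, staying at 1 only without WT replicate 3. Over all genes, 3810 were lower as reported, 2380 with all libraries rescaled to sum to 1000000 and 2353 with that sum taken without globins and mitochondrial genes; the share of lower calls was 51.67%, 31.05% and 30.61%, and the median log2 fold change -0.0097, 0.12 and 0.13. Gata2, not called as reported, had log2 fold changes of -0.0067 (without WT replicate 2) to 0.094 with each library left out (adjusted p 0.014 to 0.89 over all alternatives) and was called higher with both sums (0.20 and 0.21). The calls of Tmem14c and Pim1 were lost with both sums, and that of Tmem14c also with quantile normalization; the cause was not tested. The globin share and the alpha to beta ratio kept their direction in all alternatives tried. With 3 against 3 libraries these exact tests cannot go below p = 0.1, and with 1 left out 0.2. The deviations of same-numbered libraries of the groups had correlations of 0.15, -0.0083 and 0.018. Those of differently numbered libraries ranged from -0.16 (WT replicate 1 with Sdc1-/- replicate 3) to 0.14 (WT replicate 2 with Sdc1-/- replicate 3). The numbers were therefore not taken to pair samples. With the number as a replicate block, 3971 genes were lower and 3653 higher. The 8 genes then gave 7 lower and 1 higher, as without it. Depth is unknown, so genes listed at 0 could not be given a limit.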
